A study of Mus musculus with 50 samples.

Results

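Lymph nodes that drain the duodenum were set against nodes that drain the ileum in mice on a vitamin A sufficient diet. The libraries were taken by their labels, 5 duodenal and 5 ileal, and these 10 are part of 50 poly(A) RNA sequencing libraries from 5 lymph nodes (duodenal, jejunal, ileal, colonic and inguinal) and 2 diets. Mice of both groups carried the genotype label C57B6 and were taken at postnatal day 56, from the second and the third litters of C57BL/6J dams. The dams had been on a control diet with 20 IU/g of vitamin A, begun 3 weeks ahead of breeding. Females gave libraries 1 and 2 of each group, and males gave libraries 3 to 5. Duodenal and ileal nodes of the deficient diet serve below as a further comparison, with 5 libraries each, all from females of the same age and genotype label whose dams had been on a vitamin A deficient diet on the same schedule. Nodes of the same mouse are not identified by the labels, and a p-value therefore reflects only how much these libraries vary.

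A lymph node filters lymph that enters beneath its capsule, passes through sinuses lined by lymphatic endothelium and leaves by the medulla. Macrophages that sit in the subcapsular and medullary sinuses capture particles and dying cells from lymph, while lymphocytes enter from blood through high endothelial venules and gather in T cell zones and B cell follicles. Each stretch of the intestine drains to its own nodes along the mesentery. Lymph from the small intestine carries absorbed fat, antigen and dendritic cells that migrate from the gut wall, and the upper nodes of this chain lie close to the pancreas.

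The 10 libraries held 6288059 to 8487925 estimated counts each, and 24479 to 26656 genes had a count. Levels are CPM, counts scaled to library size with TMM factors, and a mean is given ± SD with n = 5. Parentheses hold the log2 fold change, duodenal over ileal (written log2), ± its standard error, and p as adjusted over all 18387 genes by Benjamini-Hochberg from the quasi-likelihood test in edgeR. Genes called are those under 0.05. Markers of lymphoid tissue were present in both groups. The summed level of 17 T cell markers lay between 3280 and 3740 CPM in duodenal nodes and between 2400 and 3100 CPM in ileal nodes, and that of 15 B cell markers between 4890 and 5950 CPM in duodenal nodes and between 5280 and 7000 CPM in ileal nodes. Summed adipose markers ran from 353 to 1460 CPM in duodenal nodes and from 911 to 2650 CPM in ileal nodes. The log2 fold change was negative for 16 of 17 members, with a median of -1.01. By edgeR or limma-voom 0 of 17 were called, while 2 were lower by DESeq2 and 7 were lower at an unadjusted p under 0.05. In whole nodes, fewer cells of a type and less RNA per cell cannot be told apart.

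In all, 1484 of 18387 genes passed, or 8.07%. Of these, 560 (3.05%) were higher and 924 (5.03%) lower in duodenal nodes. Transcripts of pancreatic digestive enzymes were set aside before the other genes were described. Pancreatic acinar cells make trypsinogens, amylases, lipases and other enzymes in very large amounts. A list of 33 such genes took 0.918, 3.9, 0.908, 0.0731 and 25.9% of the estimated counts in duodenal libraries 1 to 5, against 0.00248, 0.00306, 0.0038, 0.0046 and 0.423% in ileal libraries 1 to 5. The groups overlapped, since duodenal library 4 lay below ileal library 5. On the log2 scale the mean difference was 7.33 (exact two-sided permutation test over 5 and 5 libraries, p = 0.0159). Of 30 tested members, 28 were higher in duodenal nodes by edgeR, whereas limma-voom called 0 of them.

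**Figure D1:**
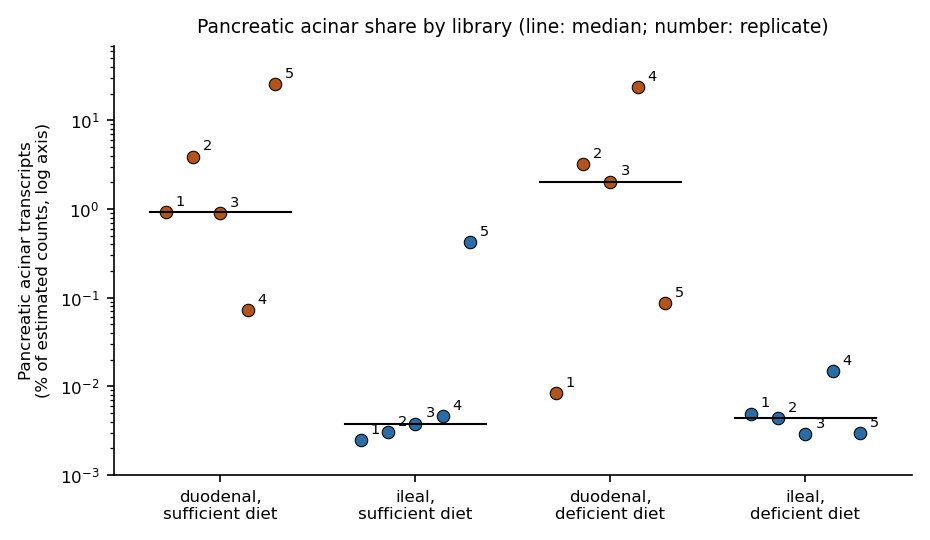
Share of estimated counts taken by pancreatic acinar transcripts in each duodenal and ileal library on both diets, in percent on a log axis, with replicate numbers and a line at the group median. Duodenal library 5 on the sufficient diet reached 25.9%, and ileal library 5 stood at 0.423%, above duodenal library 4 at 0.0731%.

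A further 23 genes outside the list followed the acinar share across the 40 other libraries (r of at least 0.8), and all 23 were higher in duodenal nodes. Among the 15 genes with the largest increases that the rule for named genes picked, 13 were such followers, including the trypsin inhibitor gene Spink1 and the phospholipase gene Pla2g1b. Setting the list and its followers aside left 509 higher and 924 lower genes among 18334. Genes known from other tissues remained among the 509. The pancreatic amylase gene Amy2a1, one of several near-identical copies among which reads cannot be divided with certainty, had 0, 224, 62.7, 0 and 4780 CPM in duodenal nodes, against 0, 0, 0.33, 1.17 and 72.3 CPM in ileal nodes. Albumin (Alb), a liver plasma protein, had 9.26, 12.1, 211, 15 and 12.4 CPM in duodenal nodes, against 5.08, 3.24, 4.29, 6.01 and 0.233 CPM in ileal nodes. Keratin 18 (Krt18), of simple epithelia, had 1.8, 5.92, 2.04, 0.264 and 46.8 CPM in duodenal nodes, against 0.13, 0.423, 0.165, 0.439 and 0.93 CPM in ileal nodes. Duodenal library 3 thus stood far above the rest for Alb, and library 5 for Krt18 and Amy2a1, and the part of such material in the results below was not tested. With duodenal libraries 3 and 5 both left out, a setting chosen after these values were seen, 1060 genes passed (351 higher and 709 lower).

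Of the 1433 genes left, 337 differed at least 2-fold, 132 of them higher and 205 lower. Genes whose 5 duodenal values all lay on the same side of the 5 ileal values made up 4.75% of all genes tested. Among the called genes they numbered 205 of the 509 higher and 478 of the 924 lower. Across 116 genes whose statistics were followed through every alternative, 103 passed. All 103 had the same direction when the females were fitted alone and when the males were, with 22 passing in females and 61 in males. These fits reuse libraries from which the 103 genes were called, so the shared direction is not independent of the call. What follows describes these genes by the cells and pathways they mark.

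**Figure D2:**
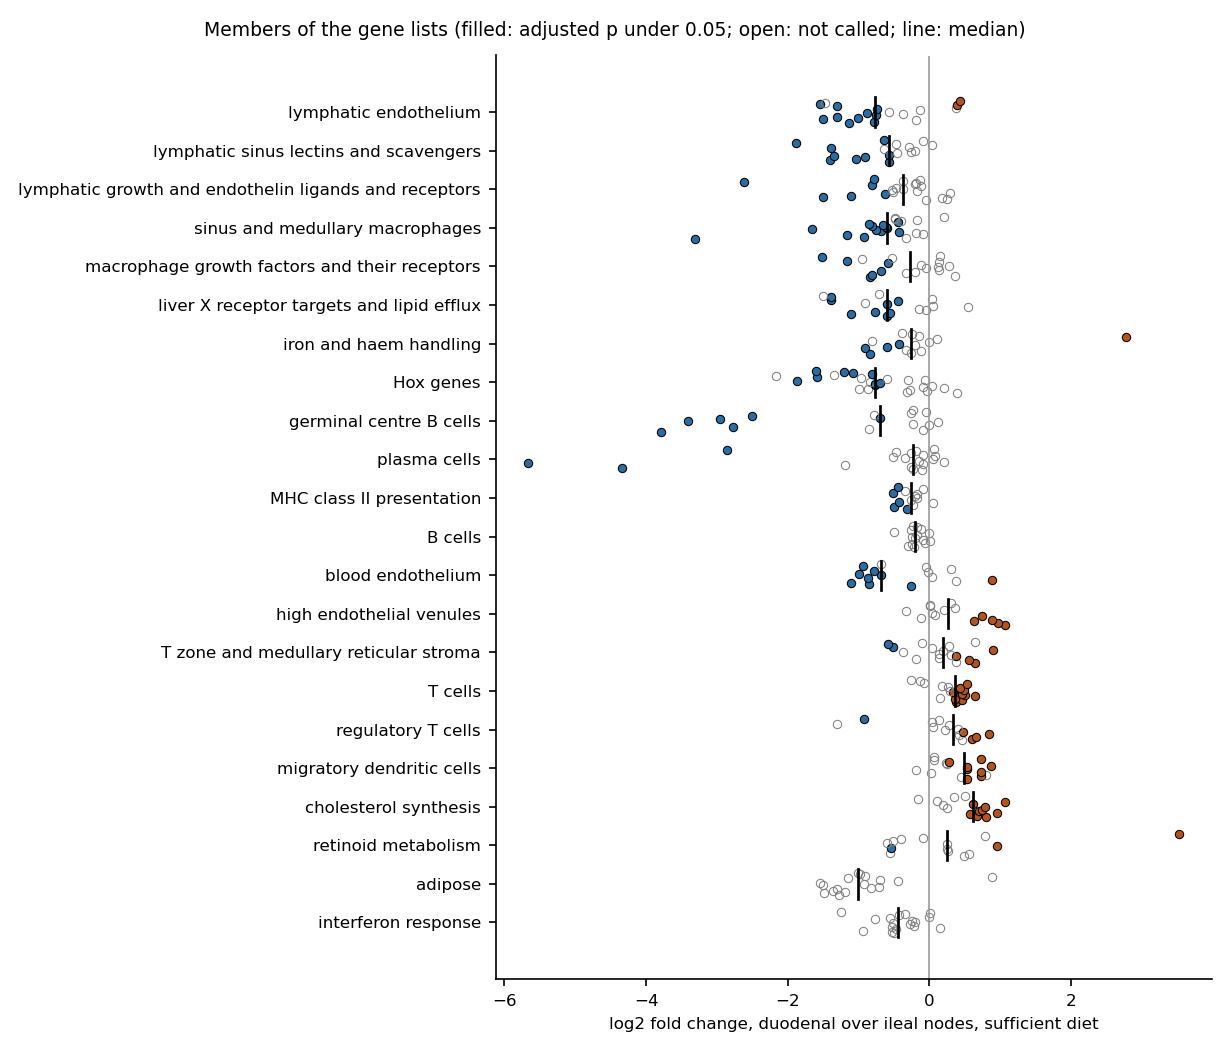
Log2 fold change of duodenal over ileal nodes for each tested member of 22 gene lists, with filled points for members past an adjusted p of 0.05, open points for the others and a bar at each list's median. The median was -0.77 for lymphatic endothelium and -0.60 for sinus and medullary macrophages, and 0.61 for cholesterol synthesis.

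Markers of lymphatic endothelium were mostly lower in duodenal nodes. Of 18 tested, 10 were lower and 2 higher, with a median log2 fold change of -0.77 against 0.01 over all genes. The summed level of the list overlapped between the groups, at 2350 to 3220 CPM in duodenal nodes and 2390 to 3130 CPM in ileal nodes, a sum that the abundant Ccl21a dominates. The master regulator of lymphatic identity, Prox1 (ENSMUSG00000010175), had 34.3, 31.6, 21.9, 28.6 and 19.4 CPM in duodenal nodes, against 75, 68, 54.9, 68.7 and 33.5 CPM in ileal nodes. A single ileal library, number 5, fell inside the duodenal range (log2 -1.14 ± 0.16, adjusted p = 3.08e-06). Flt4 (ENSMUSG00000020357), which encodes VEGFR3, the receptor through which lymphatic vessels are told to grow, had 46.5, 34.4, 32.4, 28.9 and 32.9 CPM in duodenal nodes, against 123, 101, 88.8, 108 and 74 CPM in ileal nodes. All 5 ileal libraries lay above all 5 duodenal ones, and ileal library 5 was again the lowest of its group. The hyaluronan receptor Lyve1 had 191, 138, 125, 177 and 151 CPM in duodenal nodes, against 275, 234, 274, 318 and 249 CPM in ileal nodes, again without overlap (log2 -0.79 ± 0.14, adjusted p = 1.99e-04).

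The integrin chain Itga9, needed for lymphatic valves, had 59.9, 58.5, 47, 37 and 58.1 CPM in duodenal nodes, against 183, 141, 110, 123 and 90.4 CPM in ileal nodes (log2 -1.30 ± 0.20, adjusted p = 1.34e-05). The tight junction gene Cldn5 averaged 59 ± 15.6 CPM in duodenal nodes and 171 ± 32.7 CPM in ileal nodes (log2 -1.54 ± 0.23, adjusted p = 9.05e-06), and neither gene's groups overlapped. Tie1, an endothelial receptor that acts with the angiopoietin receptor, averaged 55 ± 8.1 CPM in duodenal nodes and 101 ± 14.7 CPM in ileal nodes (log2 -0.88 ± 0.12, adjusted p = 1.35e-06). Lower values also came with Nr2f2 and Sox18, transcription factors of venous and early lymphatic endothelium (-0.75 ± 0.15 and -0.75 ± 0.18), and with Mmrn1 and Reln, secreted products of lymphatic endothelium (-1.01 ± 0.22 and -1.31 ± 0.34). Reln had the weakest support of these (adjusted p = 0.00847), and its call was lost without duodenal libraries 3 and 5. Not every member followed. Fgl2 and Thy1 were higher (log2 0.39 ± 0.12, adjusted p = 0.0353, and log2 0.44 ± 0.12, adjusted p = 0.0203), and T cells also make both. Neither passed without duodenal libraries 3 and 5. Ccl21a, the chemokine of lymphatic endothelium and of T zone stroma, did not pass (log2 0.38 ± 0.13, adjusted p = 0.0637). Foxc2, Gata2, Pdpn, Tek and Nts did not pass either.

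A list of lectins, scavenger receptors and other genes linked to the sinuses had 9 of 17 tested genes lower and 0 higher, with a median of -0.57. Stab2, which clears hyaluronan, lay between 90.1 and 152 CPM in duodenal nodes and between 215 and 325 CPM in ileal nodes. Marco, a receptor for bacteria and particles found on medullary sinus endothelium and on macrophages, had 973, 774, 744, 940 and 918 CPM in duodenal nodes, against 1400, 1710, 2000, 2170 and 1670 CPM in ileal nodes. The groups did not overlap (log2 -1.03 ± 0.18, adjusted p = 1.29e-04). The lectin Cd209b (SIGN-R1), which binds microbial polysaccharides, had 242, 227, 136, 198 and 181 CPM in duodenal nodes, against 411, 675, 470, 562 and 385 CPM in ileal nodes, with every ileal library above every duodenal one (log2 -1.35 ± 0.18, adjusted p = 1.20e-06). Clec4g, a sinusoidal lectin, averaged 20.6 ± 3.48 CPM in duodenal nodes and 38.9 ± 10.8 CPM in ileal nodes (log2 -0.91 ± 0.24, adjusted p = 0.01).

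Coch, whose product cochlin is secreted by follicular dendritic cells, had 1.38, 4.36, 1.57, 3.43 and 4.5 CPM in duodenal nodes, against 9.89, 6.49, 6.93, 11.4 and 21 CPM in ileal nodes (log2 -1.89 ± 0.34, adjusted p = 1.66e-04). Ackr2, a decoy receptor that removes inflammatory chemokines, was lower with overlapping values (log2 -1.39 ± 0.32, adjusted p = 0.00338), as was Stab1 (log2 -0.57 ± 0.14, adjusted p = 0.0068). The mannose receptor Mrc1 and the growth factor Bmp2 made up the 9. Of 17 tested genes of the Cd209, Clec4 and Stab families, 4 were lower, namely Stab1, Stab2, Cd209b and Clec4g, and 0 were higher. Without duodenal libraries 3 and 5, 5 of the 9 sinus genes passed, and Stab1 and Clec4g were among those lost.

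Receptors and ligands of lymphatic growth were read apart. Of 20 tested genes of the vascular growth factor, adrenomedullin and endothelin pathways, 6 were lower and 0 higher, and all 6 encode receptors or parts of them, Flt4 and Lyve1 among them. The endothelin B receptor Ednrb (ENSMUSG00000022122) had 11.9, 8.87, 9.09, 9.37 and 10.4 CPM in duodenal nodes, against 70.7, 54.6, 76.1, 68.6 and 34.1 CPM in ileal nodes. The 5 duodenal values spanned a narrow band and the ileal mean was 6.13 times the duodenal mean. Kdr (VEGFR2) had 133, 100, 68.5, 83.8 and 98.4 CPM in duodenal nodes, against 220, 242, 192, 221 and 163 CPM in ileal nodes, without overlap (log2 -1.11 ± 0.13, adjusted p = 1.06e-07). Nrp2, the co-receptor of VEGFR3, averaged 69.1 ± 12.5 CPM in duodenal nodes and 106 ± 13.8 CPM in ileal nodes (log2 -0.62 ± 0.09, adjusted p = 1.16e-05), and Ramp2, which with Calcrl forms the adrenomedullin receptor, 42 ± 5.62 CPM in duodenal nodes and 74.9 ± 18 CPM in ileal nodes (log2 -0.81 ± 0.14, adjusted p = 1.42e-04).

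None of the ligand genes passed. At an unadjusted p under 0.05, 10 of the list's 20 genes were lower and 0 higher, more than the adjusted call shows. The VEGFR3 ligand Vegfc had 5.67, 5.92, 7.99, 8.98 and 8.1 CPM in duodenal nodes, against 4.95, 5.08, 7.42, 5.86 and 7.44 CPM in ileal nodes, and the ranges overlapped (log2 0.25 ± 0.19, adjusted p = 0.497). Vegfd averaged 4.45 ± 0.971 CPM in duodenal nodes and 3.93 ± 1.29 CPM in ileal nodes (log2 0.18 ± 0.26, adjusted p = 0.757). The endothelin gene Edn1 was low, at 2.38 ± 0.875 CPM in duodenal nodes and 2.73 ± 0.818 CPM in ileal nodes (log2 -0.21 ± 0.30, adjusted p = 0.758). Vegfa, Angpt1, Angpt2, Adm and the genes for proteins that process VEGF-C, Ccbe1 and Adamts3, did not pass, nor did the receptors Tek, Calcrl and Ednra.

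**Figure D3:**
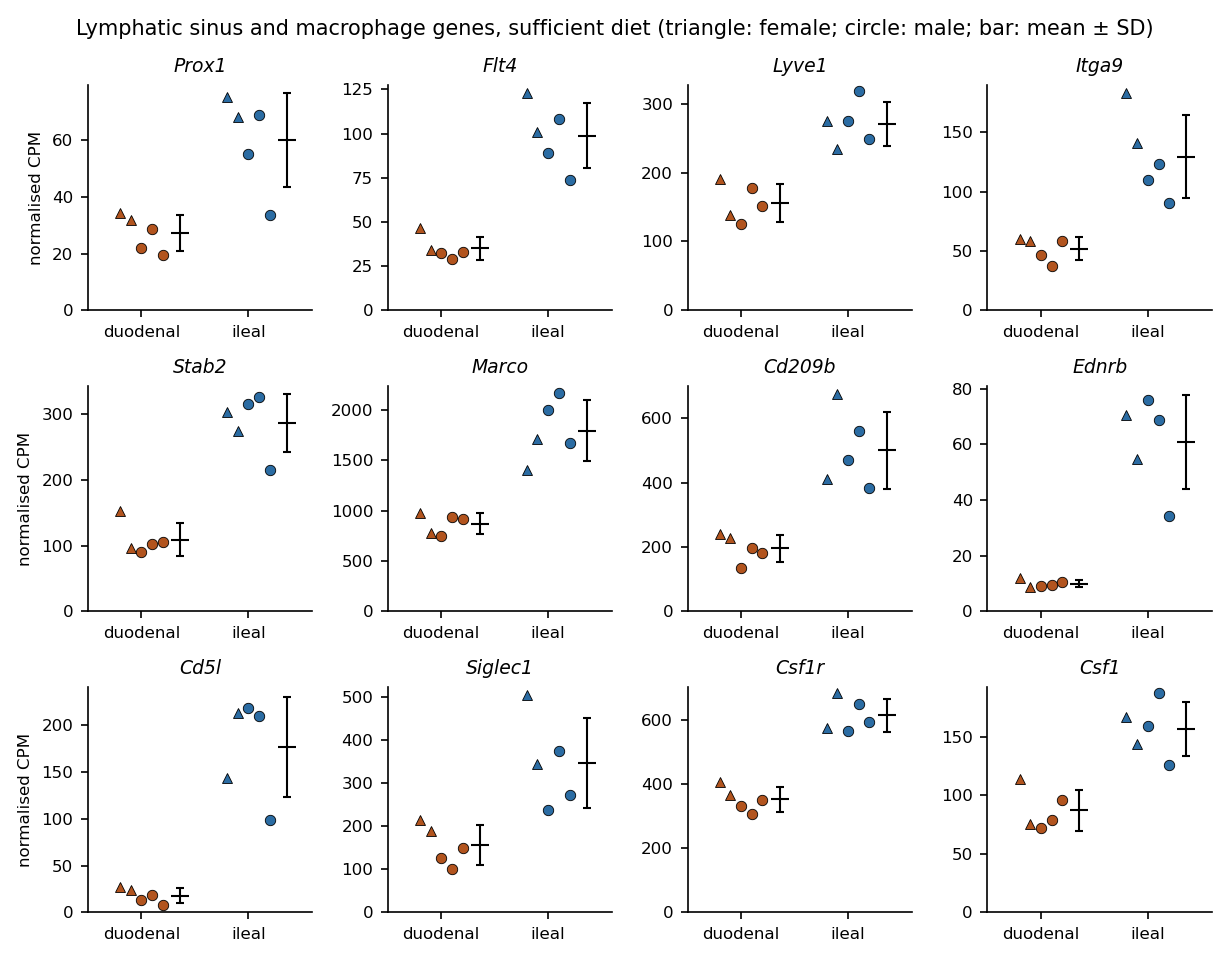
Normalised CPM of 12 genes of lymphatic sinuses and macrophages in each duodenal (left) and ileal (right) library on the sufficient diet, with triangles for females, circles for males and a bar for the mean ± SD of 5. In 11 of the 12 panels the 2 groups do not overlap, and Prox1 is the exception, with 33.5 CPM in ileal library 5 and up to 34.3 CPM in duodenal nodes. The 12 genes were chosen with results known, so this count reflects the choice. Among all genes tested, 4.75% showed no overlap.

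Macrophage genes were lower as well. Of 21 tested markers of sinus and medullary macrophages, 13 were lower and 0 higher, with a median of -0.60, and 12 or 13 were lower whichever of the 10 libraries was left out. Cd5l (ENSMUSG00000015854), a secreted protein of resident macrophages that supports their survival and lipid handling, had 27.4, 23.8, 12.8, 18.6 and 7.65 CPM in duodenal nodes, against 144, 213, 219, 210 and 98.7 CPM in ileal nodes. The lowest ileal library, number 5, still lay far above the highest duodenal one. Siglec1 (CD169), which captures sialylated particles from lymph, had 215, 189, 126, 100 and 150 CPM in duodenal nodes, against 504, 345, 238, 374 and 273 CPM in ileal nodes, without overlap (log2 -1.17 ± 0.23, adjusted p = 5.11e-04). Folr2, a folate receptor of tissue-resident macrophages, had 6.64, 4.67, 6.74, 5.68 and 6.08 CPM in duodenal nodes, against 15.8, 19, 22.3, 26.2 and 11.2 CPM in ileal nodes (log2 -1.65 ± 0.24, adjusted p = 8.33e-06).

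The F4/80 gene Adgre1, typical of medullary macrophages, averaged 43.7 ± 8.94 CPM in duodenal nodes and 83 ± 8 CPM in ileal nodes (log2 -0.93 ± 0.18, adjusted p = 5.20e-04). Mertk, through which dying cells are recognised, averaged 26.9 ± 1.53 CPM in duodenal nodes and 40.7 ± 3.98 CPM in ileal nodes (log2 -0.60 ± 0.12, adjusted p = 6.14e-04). In neither did the groups overlap. The complement chains C1qb and C1qc were lower (-0.68 ± 0.14 and -0.75 ± 0.15), whereas C1qa (log2 -0.43 ± 0.13, adjusted p = 0.0265) lost its call in 5 of the 10 fits that leave out a library. Axl, Cd68 and Maf were lower as well. Cd163, Clec1b, Cx3cr1, Timd4, Cd209d, Cd209f, Cd209g and Vcam1 did not pass, Vcam1 with 236 ± 30.8 CPM in duodenal nodes and 270 ± 32.7 CPM in ileal nodes (adjusted p = 0.246).

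The growth factor on which these macrophages depend moved in the same direction as its receptor. CSF-1, the product of Csf1, is made by lymphatic endothelium and stroma in lymph nodes and signals through the receptor Csf1r. Csf1 had 114, 75.3, 72.2, 78.8 and 95.7 CPM in duodenal nodes, against 167, 144, 159, 187 and 126 CPM in ileal nodes (log2 -0.84 ± 0.13, adjusted p = 9.82e-06). Csf1r had 405, 365, 330, 306 and 351 CPM in duodenal nodes, against 573, 684, 566, 649 and 593 CPM in ileal nodes (log2 -0.80 ± 0.11, adjusted p = 3.67e-06). Neither gene's groups overlapped. Il34, the other ligand of this receptor, averaged 4.99 ± 1.3 CPM in duodenal nodes and 3.93 ± 1.79 CPM in ileal nodes and did not pass (log2 0.37 ± 0.28, adjusted p = 0.488). Of 18 tested genes of macrophage growth and recruitment, 6 were lower and 0 higher, among them the monocyte chemokine Ccl2 (log2 -1.16 ± 0.30, adjusted p = 0.00871). That count was 3 without duodenal libraries 3 and 5.

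Lipid-handling genes that macrophages and other cells switch on through the liver X receptor, a sensor of oxidised cholesterol, were lower in 8 of 16 tested cases and higher in 0, with a median of -0.60. The receptor's own gene Nr1h3 had 54.9, 55.7, 59.2, 54.9 and 55.6 CPM in duodenal nodes, against 75.2, 71.9, 94.9, 98.3 and 89 CPM in ileal nodes (log2 -0.60 ± 0.13, adjusted p = 0.00126). Mylip, a ubiquitin ligase gene, had 82, 77.5, 86.5, 70.8 and 76.1 CPM in duodenal nodes, against 133, 128, 141, 152 and 115 CPM in ileal nodes (log2 -0.77 ± 0.10, adjusted p = 1.20e-06). Both showed no overlap. The cholesterol exporter Abca1 had 108, 183, 81.9, 87 and 86.2 CPM in duodenal nodes, against 262, 398, 188, 217 and 124 CPM in ileal nodes, with duodenal library 2 above ileal library 5 (log2 -1.11 ± 0.22, adjusted p = 7.15e-04). Cd36, a fatty acid and lipoprotein receptor, averaged 94.1 ± 17.1 CPM in duodenal nodes and 247 ± 49.5 CPM in ileal nodes (log2 -1.39 ± 0.30, adjusted p = 0.0018). Scd1, a fatty acid desaturase that adipose tissue also makes in quantity, averaged 407 ± 137 CPM in duodenal nodes and 1071 ± 295 CPM in ileal nodes, and its call was lost in 8 of the 10 fits without a library (log2 -1.40 ± 0.45, adjusted p = 0.0435). Apoe, Lpl, Srebf1 and Pparg did not pass. Lpl and Fabp4 are members of the adipose list as well, whose summed level is given above.

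Haem and iron genes of macrophages were lower in 4 of 15 cases. The endosomal metal transporter Slc11a1 averaged 43.6 ± 6.73 CPM in duodenal nodes and 82.1 ± 16.8 CPM in ileal nodes (log2 -0.91 ± 0.14, adjusted p = 1.39e-05), haem oxygenase Hmox1 27.6 ± 3.3 CPM in duodenal nodes and 49.5 ± 12.8 CPM in ileal nodes (log2 -0.84 ± 0.21, adjusted p = 0.00588), and biliverdin reductase Blvrb 35.6 ± 5.36 CPM in duodenal nodes and 53.8 ± 6.95 CPM in ileal nodes (log2 -0.59 ± 0.11, adjusted p = 3.98e-04). The ferritin chain Fth1 was the fourth gene. Hpx, a liver plasma protein, was the single member that was higher, and its call was absent without duodenal libraries 3 and 5.

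A list of blood endothelial genes was lower in part. Of 15 tested, 8 were lower and 1 higher. Plvap and Kdr are also genes of lymphatic vessels, so the list does not separate blood from lymphatic endothelium. Plvap, the diaphragm protein of fenestrated vessels and of lymphatic sinuses, had 160, 181, 205, 202 and 223 CPM in duodenal nodes, against 319, 327, 398, 394 and 327 CPM in ileal nodes, without overlap (log2 -0.87 ± 0.11, adjusted p = 1.06e-06). Pecam1, Cdh5, Egfl7, Erg, Eng, Rasip1 and the Kdr gene described above were the other lower members. Flt1, Esam, Vwf, Ly6c1, Cd93 and Gpihbp1 did not pass. Emcn, a sialomucin of veins and capillaries, went the other way with 14.9, 11.2, 11.6, 17.7 and 15.8 CPM in duodenal nodes, against 5.08, 7.9, 9.9, 6.59 and 9.19 CPM in ileal nodes (log2 0.89 ± 0.19, adjusted p = 0.00101).

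High endothelial venule genes were higher in 5 of 14 tested cases and lower in 0, with a median of 0.26. These venules carry sulfated, fucosylated ligands for L-selectin, and Fut7, Chst4, Chst2 and Glycam1, which make or carry such ligands, were among the genes called. Fut7, the fucosyltransferase, had 17.3, 14.2, 12.7, 11.4 and 13.5 CPM in duodenal nodes, against 6.25, 7.76, 7.92, 6.74 and 8.26 CPM in ileal nodes, without overlap (log2 0.88 ± 0.21, adjusted p = 0.00518). Glycam1, a mucin that carries the ligand, had 1570, 1240, 371, 274 and 171 CPM in duodenal nodes, against 494, 404, 256, 125 and 113 CPM in ileal nodes (log2 1.07 ± 0.24, adjusted p = 0.002). Females (libraries 1 and 2) stood above males in both nodes, and the duodenal values lay above the ileal ones in females but overlapped with them in males. Its call was lost without the sex term, in males alone and in a fit of the 10 libraries alone. The sulfotransferases Chst4 and Chst2 were higher with overlapping values (log2 0.97 ± 0.24, adjusted p = 0.00622, and log2 0.64 ± 0.18, adjusted p = 0.0207), and each lost its call in at least 1 fit without a library, Chst2 also without duodenal libraries 3 and 5. Ackr1, the chemokine-carrying Duffy receptor of venules, averaged 16.9 ± 2.89 CPM in duodenal nodes and 10.1 ± 1.83 CPM in ileal nodes (log2 0.75 ± 0.17, adjusted p = 0.00245). Madcam1 and Nkx2-3, the mucosal addressin and its regulator, did not pass.

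Around the vessels, Rgs5, a regulator of G protein signalling typical of pericytes, had 48.8, 52.1, 68.9, 52.4 and 65.5 CPM in duodenal nodes, against 21.1, 25.5, 30, 24.2 and 29.2 CPM in ileal nodes, without overlap (log2 1.14 ± 0.14, adjusted p = 2.30e-07). Of 16 tested pericyte and smooth muscle genes it was the only one called higher, and Smtn was called lower. Npy1r, a neuropeptide Y receptor found on vascular smooth muscle, averaged 5.54 ± 1.99 CPM in duodenal nodes and 2.56 ± 0.614 CPM in ileal nodes (log2 1.14 ± 0.24, adjusted p = 0.00121), and Nr2f1, an orphan nuclear receptor, 11.9 ± 3.39 CPM in duodenal nodes and 4.89 ± 2.25 CPM in ileal nodes (log2 1.28 ± 0.27, adjusted p = 0.00103).

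T cell genes were modestly higher. Of 17 tested, 10 were higher and 0 lower, with a median of 0.37, and 7 to 10 were higher when a library was left out. Cd8a, the CD8 chain of cytotoxic T cells, had 251, 242, 243, 231 and 224 CPM in duodenal nodes, against 164, 152, 139, 128 and 178 CPM in ileal nodes, without overlap (log2 0.65 ± 0.11, adjusted p = 1.07e-04). The T cell receptor constant gene Trac averaged 211 ± 14.8 CPM in duodenal nodes and 151 ± 29.9 CPM in ileal nodes (log2 0.48 ± 0.10, adjusted p = 8.31e-04). Cd4 averaged 211 ± 43.4 CPM in duodenal nodes and 189 ± 16.7 CPM in ileal nodes and did not pass (log2 0.15 ± 0.10, adjusted p = 0.418). Ccr7, which brings naive T cells and dendritic cells to the T zone, had 281, 287, 427, 311 and 338 CPM in duodenal nodes, against 222, 175, 273, 222 and 248 CPM in ileal nodes (log2 0.53 ± 0.11, adjusted p = 0.00106). Ccl5, a chemokine of memory CD8 T cells, averaged 242 ± 54.4 CPM in duodenal nodes and 145 ± 38.5 CPM in ileal nodes (log2 0.75 ± 0.17, adjusted p = 0.00205). Of 15 B cell markers, 0 passed by edgeR or limma-voom, DESeq2 called 1 lower, and 6 were lower at an unadjusted p under 0.05, with a median of -0.20.

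Stromal signals of the T zone were higher in 4 of 17 cases and lower in 2. Ccl19, the CCR7 ligand made by T zone reticular cells, had 150, 153, 335, 245 and 215 CPM in duodenal nodes, against 123, 84.9, 195, 143 and 149 CPM in ileal nodes, with overlapping ranges (log2 0.65 ± 0.14, adjusted p = 0.00201). Il7, the survival factor of naive T cells, had 15.2, 17.1, 16.1, 22.3 and 16.2 CPM in duodenal nodes, against 8.98, 13.7, 13, 10.5 and 13 CPM in ileal nodes (log2 0.56 ± 0.16, adjusted p = 0.0195). Its call was lost without duodenal library 4, ileal library 1 or ileal library 4. Tnfsf13b, the B cell survival factor BAFF, averaged 9.38 ± 3.37 CPM in duodenal nodes and 4.96 ± 1.27 CPM in ileal nodes (log2 0.90 ± 0.24, adjusted p = 0.01), and lost its call without duodenal libraries 3 and 5. Grem1 was the fourth higher gene. Fmod and the lymphotoxin receptor Ltbr were lower. Without duodenal library 4 the count of higher genes was 2.

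The list of regulatory T cell genes had 14 tested members, 4 of them higher and 1 lower. The interleukin 2 receptor chain Il2ra had 25.7, 24.9, 32.4, 32.9 and 23.4 CPM in duodenal nodes, against 19.1, 14.4, 19.8, 17.3 and 21.2 CPM in ileal nodes, without overlap (log2 0.60 ± 0.12, adjusted p = 7.77e-04). Ctla4, an inhibitory receptor, averaged 19.6 ± 3.44 CPM in duodenal nodes and 12.5 ± 2.74 CPM in ileal nodes (log2 0.66 ± 0.18, adjusted p = 0.0162), and its call was lost without duodenal library 2 or ileal library 4. Ikzf4 and Tnfrsf4 were the other higher members. Foxp3, which defines the lineage, averaged 23.5 ± 4.09 CPM in duodenal nodes and 17 ± 2.64 CPM in ileal nodes and did not pass (log2 0.46 ± 0.19, adjusted p = 0.128). Lrrc32 (GARP), which tethers latent TGF-beta on regulatory T cells and on endothelium, was lower, with 24.7, 19.9, 21.2, 20.6 and 21.2 CPM in duodenal nodes, against 45.6, 38.1, 43.6, 44.1 and 33 CPM in ileal nodes (log2 -0.92 ± 0.19, adjusted p = 0.0011). The number of higher genes was 2 without duodenal library 2.

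Markers of dendritic cells that have migrated from tissue were higher in 8 of 16 cases and lower in 0, with a median of 0.49. The phospholipid-binding Anxa3 had 104, 121, 132, 114 and 104 CPM in duodenal nodes, against 48.6, 80.5, 61.4, 55.2 and 68.1 CPM in ileal nodes, without overlap (log2 0.87 ± 0.13, adjusted p = 6.06e-06). Tmem123 (porimin) had 542, 594, 642, 544 and 532 CPM in duodenal nodes, against 411, 353, 416, 389 and 405 CPM in ileal nodes, also without overlap (log2 0.53 ± 0.09, adjusted p = 9.53e-05). Ccl22, a chemokine that draws CCR4-bearing T cells, had 143, 204, 240, 157 and 177 CPM in duodenal nodes, against 104, 117, 111, 95.4 and 129 CPM in ileal nodes, with every duodenal library above every ileal one (log2 0.73 ± 0.15, adjusted p = 7.15e-04). Apol7c, an apolipoprotein L of dendritic cells, averaged 657 ± 133 CPM in duodenal nodes and 400 ± 65.4 CPM in ileal nodes (log2 0.72 ± 0.16, adjusted p = 0.00139). Ccr7, Cacnb3, Cd40 and Nudt17 were the other members called, while Fscn1, Ccl17 and Il12b were not. Without duodenal library 2, 5 of the 16 passed.

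**Figure D4:**
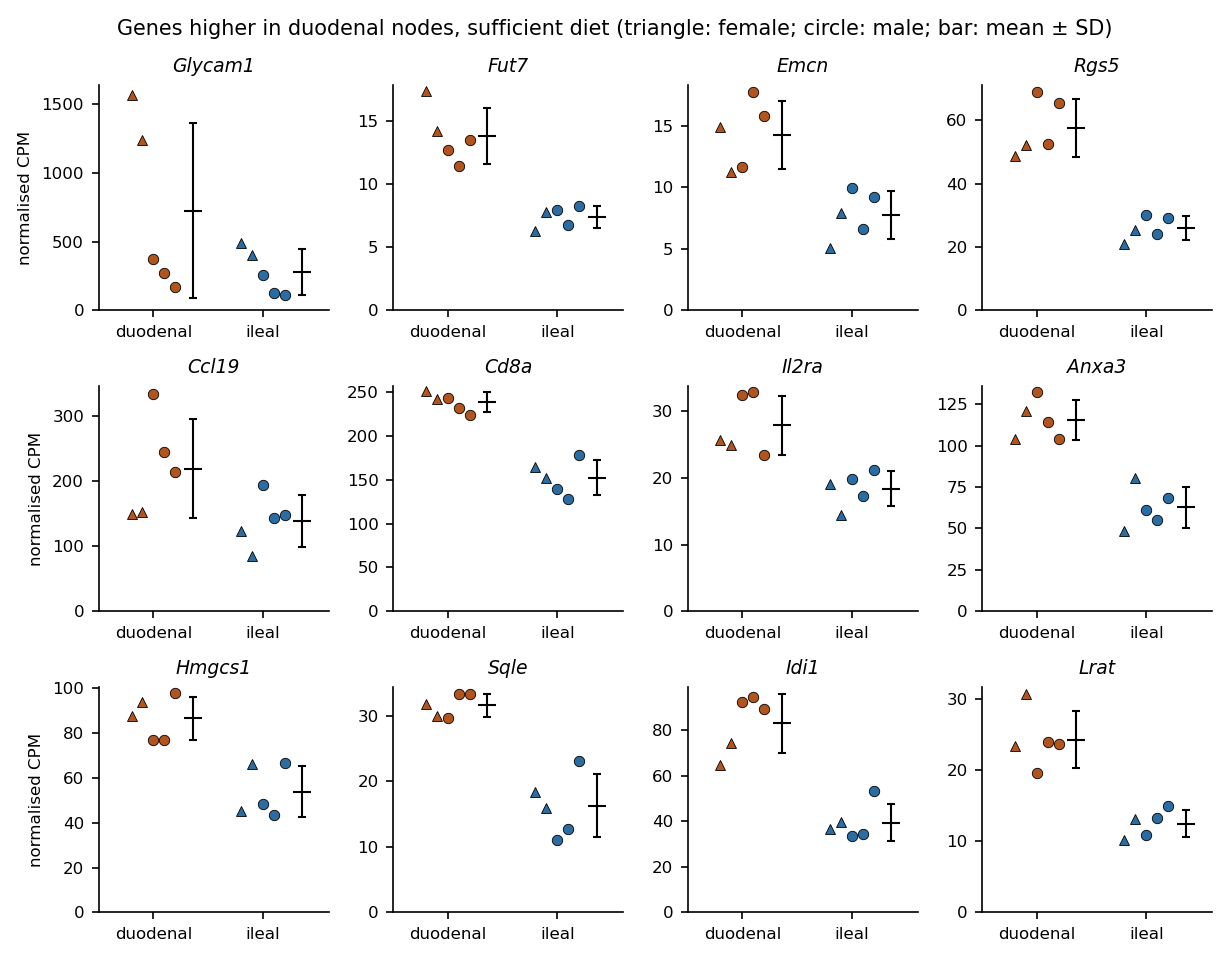
Normalised CPM of 12 genes that were higher in duodenal nodes, with duodenal libraries (left) and ileal libraries (right) on the sufficient diet, triangles for females, circles for males and a bar for the mean ± SD of 5. In the Glycam1 panel females stand far above males in both nodes, from 1240 to 1570 CPM in duodenal nodes and from 404 to 494 CPM in ileal nodes.

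Genes of cholesterol synthesis were higher together. The pathway turns acetyl-CoA into mevalonate, then into squalene and finally into cholesterol, and its genes are switched on by the factor SREBP2 when membrane sterol falls. Of 15 tested genes, 9 were higher and 0 lower, with a median of 0.61, and 8 or 9 passed whichever library was left out. Without duodenal libraries 3 and 5 the count was 7, and it was 0 in females alone and 2 in males alone. The early step HMG-CoA synthase, Hmgcs1, had 87.4, 93.6, 76.9, 76.8 and 97.9 CPM in duodenal nodes, against 45.2, 66.3, 48.2, 43.2 and 66.5 CPM in ileal nodes (log2 0.68 ± 0.14, adjusted p = 8.49e-04). The isomerase Idi1 had 64.6, 74.3, 92.3, 94.5 and 89.4 CPM in duodenal nodes, against 36.7, 39.5, 33.7, 34.3 and 53.3 CPM in ileal nodes (log2 1.06 ± 0.18, adjusted p = 6.79e-05). In both of these every duodenal library stood above every ileal one.

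Further along the pathway, squalene epoxidase Sqle had 31.7, 30, 29.6, 33.3 and 33.3 CPM in duodenal nodes, against 18.4, 15.9, 11.1, 12.7 and 23.1 CPM in ileal nodes (log2 0.95 ± 0.17, adjusted p = 1.90e-04). The lanosterol demethylase Cyp51 averaged 60 ± 7.38 CPM in duodenal nodes and 34.8 ± 8.11 CPM in ileal nodes (log2 0.78 ± 0.17, adjusted p = 0.00156). Squalene synthase Fdft1 and the farnesyl synthase Fdps were higher as well (0.74 ± 0.17 and 0.70 ± 0.17), and Fdft1 lost its call without duodenal libraries 3 and 5. Lss, Dhcr7, Mvd, Mvk, Sc5d and Insig1 did not pass. Abca1, which exports cholesterol, is among the liver X receptor targets that were lower above.

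Upstream sequences of these genes are shown because they moved together and because 2 short motifs are textbook features of sterol-regulated promoters. The motifs were CCAAT, bound by NF-Y, and TCACNCCAC, a form of the sterol regulatory element. Both strands of the 250 bases ahead of the start site were searched in RefSeq's promoters (GRCm38.p6). Of the 16 genes on the list, 9 had an entry, with 11 promoters, and CCAAT lay in 9 of the 9 genes and in 9 of the 11 promoters, against 33.8% of all 32851 promoters of this length. TCACNCCAC lay in 1 of the 11, against 1.05% of all promoters. Dhcr7, Insig1, Lss, Mvd, Mvk and Sc5d had an entry but did not pass, and CCAAT lay in each of them too. The motif was thus present in called and uncalled genes alike. Of the 9 genes that were higher, 3 had an entry. Their sequences follow, 5′ to 3′ on the strand of the gene, with motif matches in capitals; ATTGG is CCAAT read on the other strand, and no CCAAT match overlaps the TCACNCCAC match.
Hmgcs1, chr13:119690101-119690350, plus strand: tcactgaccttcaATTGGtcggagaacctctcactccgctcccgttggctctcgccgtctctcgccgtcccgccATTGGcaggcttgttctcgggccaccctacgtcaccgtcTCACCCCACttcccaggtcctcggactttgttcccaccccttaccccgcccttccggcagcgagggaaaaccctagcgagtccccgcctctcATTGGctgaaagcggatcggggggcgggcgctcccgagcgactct
Idi1, chr13:8885356-8885605, plus strand: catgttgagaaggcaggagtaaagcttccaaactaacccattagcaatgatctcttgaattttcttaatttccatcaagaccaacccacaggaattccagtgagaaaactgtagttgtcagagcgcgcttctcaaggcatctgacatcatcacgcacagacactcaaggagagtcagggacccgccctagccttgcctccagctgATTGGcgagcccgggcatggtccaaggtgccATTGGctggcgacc
Cyp51, chr5:4104698-4104947, minus strand: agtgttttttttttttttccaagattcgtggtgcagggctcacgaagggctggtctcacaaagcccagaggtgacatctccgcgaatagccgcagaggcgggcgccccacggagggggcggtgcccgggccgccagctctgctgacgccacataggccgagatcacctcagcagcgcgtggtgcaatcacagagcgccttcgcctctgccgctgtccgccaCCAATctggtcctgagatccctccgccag
Hmgcs1 carried 3 CCAAT matches and TCACCCCAC, which began 137 bases ahead of the start site. Idi1 carried 2 CCAAT matches and Cyp51 1. A match describes these letters and is not evidence of binding in the nodes. The promoters of the other 6 higher genes were not analysed here.

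Germinal centre genes were lower by large factors. In germinal centres B cells mutate and switch their antibody genes and compete for help from T cells. Of 15 tested genes, 6 were lower and 0 higher, and between 5 and 8 were lower when a library was left out. Rgs13, a signalling brake of germinal centre B cells, had 0.138, 0.778, 0.47, 0.66 and 0 CPM in duodenal nodes, against 4.69, 1.55, 3.3, 5.13 and 9.42 CPM in ileal nodes (log2 -3.40 ± 0.58, adjusted p = 8.49e-05). Mef2b, a factor that activates the Bcl6 gene, had 0.829, 1.4, 1.41, 1.32 and 2.25 CPM in duodenal nodes, against 10.3, 2.96, 5.61, 7.47 and 22.8 CPM in ileal nodes (log2 -2.77 ± 0.42, adjusted p = 1.38e-05). The ileal libraries were spread widely, with number 5 the highest for both of these genes and number 2 the lowest, yet all lay above the duodenal ones.

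Mybl1 and Nuggc, both typical of germinal centre B cells, averaged 1.95 ± 0.568 CPM in duodenal nodes and 11.1 ± 5.76 CPM in ileal nodes, and 1.13 ± 0.521 CPM in duodenal nodes and 8.86 ± 9.27 CPM in ileal nodes (log2 -2.50 ± 0.53, adjusted p = 0.00124, and log2 -2.96 ± 0.60, adjusted p = 7.68e-04). Neil1, a DNA repair gene, was lower as well. Bcl6 itself, which follicular helper T cells also make, averaged 57.4 ± 7.22 CPM in duodenal nodes and 61.2 ± 10.7 CPM in ileal nodes and did not pass (log2 -0.09 ± 0.11, adjusted p = 0.696), nor did Fas, S1pr2 or Cxcr5. In males alone Rgs13, Mef2b, Mybl1 and Nuggc passed, whereas in females alone, with 2 libraries a node, Mef2b was the one that did (adjusted p = 0.043).

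Of 19 plasma cell genes, 3 were lower and 0 higher. The IgG1 heavy chain gene Ighg1 had 12.9, 1.25, 2.98, 17.4 and 57.2 CPM in duodenal nodes, against 473, 45.7, 86.4, 264 and 817 CPM in ileal nodes, and duodenal library 5 exceeded ileal library 2 (log2 -4.34 ± 1.12, adjusted p = 0.00847). Slpi, a protease inhibitor, had 2.35, 2.96, 4.39, 2.64 and 4.95 CPM in duodenal nodes, against 25.8, 12.7, 9.73, 25.2 and 48.8 CPM in ileal nodes, without overlap (log2 -2.86 ± 0.62, adjusted p = 0.00147). The IgE heavy chain gene Ighe had 0.138, 0.467, 0, 0.528 and 0 CPM in duodenal nodes, against 32, 2.26, 1.81, 3.22 and 26.6 CPM in ileal nodes (log2 -5.67 ± 1.35, adjusted p = 0.00411), and it did not pass by limma-voom. Igha, the heavy chain of IgA, had 2270, 2120, 2850, 2480 and 1840 CPM in duodenal nodes, against 1410, 2620, 3310, 4250 and 2410 CPM in ileal nodes, and the duodenal range lay inside the ileal one (log2 -0.23 ± 0.42, adjusted p = 0.819). Jchain, Xbp1, Mzb1 and Sdc1 did not pass.

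Some genes of antigen presentation on MHC class II were lower by a small factor. Of 13 tested genes, 5 were lower and 0 higher, with a median of -0.25. The beta chain H2-Ab1 had 1230, 1240, 1520, 1630 and 1490 CPM in duodenal nodes, against 1700, 1770, 2140, 2200 and 2250 CPM in ileal nodes (log2 -0.50 ± 0.09, adjusted p = 1.30e-04). Cd74, the invariant chain, had 3480, 3980, 4600, 4620 and 4390 CPM in duodenal nodes, against 4920, 6200, 6150, 6180 and 6580 CPM in ileal nodes, and neither gene's groups overlapped (log2 -0.52 ± 0.09, adjusted p = 1.30e-04). H2-Aa, H2-DMa and Lgmn made up the 5, of which 3 passed without duodenal libraries 3 and 5. The master regulator Ciita did not pass.

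Hox genes, which record the position of a tissue along the body axis, were lower in 9 of 25 tested cases and higher in 0, with a median of -0.77. They belonged to the B, C and D clusters, and values are given for those of the D cluster. Hoxd9 (ENSMUSG00000043342) averaged 8.7 ± 2.62 CPM in duodenal nodes and 20.5 ± 4.1 CPM in ileal nodes, and in the other nodes of the sufficient diet 12.7 ± 2.58 CPM in nodes of the jejunum, 14 ± 3.04 CPM in those of the colon and 8.72 ± 1.98 CPM in inguinal ones. Its ileal level was thus the highest of the 5 nodes and its duodenal level close to the inguinal one. Hoxd8 had 9.12, 8.56, 10.5, 10.4 and 4.73 CPM in duodenal nodes, against 19, 22.6, 19.8, 20.5 and 10.8 CPM in ileal nodes (log2 -1.08 ± 0.24, adjusted p = 0.00209), and Hoxd4 8.85, 6.23, 7.21, 8.32 and 6.53 CPM in duodenal nodes, against 13.7, 10.7, 15.7, 13.6 and 11.7 CPM in ileal nodes (log2 -0.80 ± 0.19, adjusted p = 0.0033). Hoxd10 stayed low, at 1.87 ± 0.567 CPM in duodenal nodes and 5.66 ± 2.47 CPM in ileal nodes. None of these groups overlapped. Hoxb5, Hoxb6, Hoxb7, Hoxb9 and Hoxc9 were the other lower members, while none of the tested genes of the A cluster (Hoxa2, Hoxa3, Hoxa5, Hoxa7, Hoxa9 and Hoxa10) passed. limma-voom called 6 of the 25. With duodenal libraries 3 and 5 left out the count was 3.

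Retinoid genes were read because vitamin A is the dietary variable of the study. Retinol is stored as esters by LRAT, or oxidised to retinal and then to retinoic acid by the ALDH1A enzymes. Lrat had 23.4, 30.7, 19.6, 24 and 23.6 CPM in duodenal nodes, against 10.2, 13.1, 10.9, 13.2 and 14.9 CPM in ileal nodes, without overlap (log2 0.96 ± 0.24, adjusted p = 0.00696). In other nodes of the sufficient diet it averaged 18.5 ± 3.13 CPM in nodes of the jejunum, 8.66 ± 2.22 CPM in those of the colon and 1.59 ± 0.587 CPM in inguinal ones. Aldh1a2 had 40.5, 55.1, 75.4, 36.4 and 67.7 CPM in duodenal nodes, against 33.3, 37.5, 36.3, 29 and 48.6 CPM in ileal nodes and did not pass (log2 0.56 ± 0.26, adjusted p = 0.198). Dhrs3, which returns retinal to retinol, was lower (log2 -0.54 ± 0.16, adjusted p = 0.0265), a call lost in 4 fits without a library. Ttr, the transthyretin that carries thyroid hormone and retinol in plasma and is made in liver, had 1.8, 3.11, 23.5, 1.85 and 8.55 CPM in duodenal nodes, against 1.43, 0.564, 1.32, 0.439 and 0 CPM in ileal nodes, highest in duodenal library 3 like Alb (log2 3.53 ± 1.03, adjusted p = 0.0223). Its call was lost without duodenal library 3, ileal library 4 or ileal library 5. The 10 other tested members, Cyp26b1, Aldh1a1 and Aldh1a3 among them, did not pass.

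Some of the largest single decreases fell outside the lists. Syndig1l, a membrane protein gene of the nervous system, had 0.138, 0.311, 0.313, 0.528 and 0 CPM in duodenal nodes, against 3.91, 9.17, 5.94, 8.5 and 1.51 CPM in ileal nodes (log2 -4.30 ± 0.45, adjusted p = 1.25e-08). In the other nodes it averaged 0.532 ± 0.318 CPM in nodes of the jejunum, 8.42 ± 1.93 CPM in those of the colon and 7.61 ± 2.65 CPM in inguinal ones, so that jejunal nodes resembled duodenal ones and the other nodes did not. Creg2, a secreted glycoprotein gene, had 15.6, 16.3, 9.4, 11.2 and 11.7 CPM in duodenal nodes, against 44.6, 50.2, 49.3, 51.3 and 34.3 CPM in ileal nodes (log2 -1.85 ± 0.19, adjusted p = 1.25e-08). Lrrn4cl averaged 3.33 ± 1.17 CPM in duodenal nodes and 14 ± 5.38 CPM in ileal nodes (log2 -2.08 ± 0.32, adjusted p = 1.16e-05). Zfp423, a transcription factor of mesenchymal and fat precursors, averaged 2.93 ± 0.644 CPM in duodenal nodes and 11.8 ± 4.89 CPM in ileal nodes (adjusted p = 9.54e-05). Tyr, the tyrosinase of pigment cells, averaged 1.72 ± 1.06 CPM in duodenal nodes and 7.13 ± 2.49 CPM in ileal nodes (log2 -1.99 ± 0.42, adjusted p = 0.00107). None of these 5 genes' groups overlapped. Upk3b, a mesothelial membrane protein from the mesothelial list, averaged 0.702 ± 0.785 CPM in duodenal nodes and 4.91 ± 2.06 CPM in ileal nodes (log2 -2.92 ± 0.69, adjusted p = 0.00385). Members of that list went both ways. Of 13 tested, 2 were lower (Cldn15 and Upk3b) and 2 higher (Krt8 and Krt18), and 0 were higher without duodenal libraries 3 and 5. The list's summed level overlapped, at 1910 to 2430 CPM in duodenal nodes and 2040 to 2570 CPM in ileal nodes.

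The jejunal node, which lies between, usually gave values between the 2. For 848 of the 924 genes lower in duodenal nodes (91.8%), and for 474 of the 509 higher ones (93.1%), the jejunal mean lay between the duodenal and the ileal mean, against 44.6% of the 18334 genes tested outside the set-aside group. A gene called for a wide gap leaves more room between, so these shares are descriptions. The ileal mean was the highest of the 5 nodes for 795 of the 924 (86%), against 19.6% of all genes. Among the 509 higher genes the duodenal mean was the highest in 370 (72.7%), against 21.4% of all genes. The inguinal mean was the highest in 113 (22.2%), below its share of 28.9% among all genes. The called genes were chosen by their duodenal and ileal levels in these same libraries, which favours such an order. These shares are therefore descriptions too. Flt4, for example, averaged 35 ± 6.7 CPM in duodenal nodes and 98.8 ± 18.5 CPM in ileal nodes, and 66.9 ± 13.3 CPM in nodes of the jejunum, 36.5 ± 9.94 CPM in those of the colon and 24.4 ± 1.85 CPM in inguinal ones. Cd5l averaged 18.1 ± 7.99 CPM in duodenal nodes and 177 ± 53.3 CPM in ileal nodes, and 24.9 ± 4.87 CPM in nodes of the jejunum, 39.8 ± 24.8 CPM in those of the colon and 13.5 ± 4.37 CPM in inguinal ones, and its jejunal level stood near the duodenal one. Idi1 averaged 83 ± 13 CPM in duodenal nodes and 39.5 ± 8.04 CPM in ileal nodes, and 58.1 ± 3.73 CPM in nodes of the jejunum, 44.6 ± 6.54 CPM in those of the colon and 30 ± 3.23 CPM in inguinal ones.

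Mice on the deficient diet share no library with this comparison. There, 1029 of 18387 genes passed (5.6%), 533 higher (2.9%) and 496 lower (2.7%). Leaving out the pancreatic genes, 433 genes passed on both diets in the same direction, 30.2% of those called on the sufficient and 44.3% of those called on the deficient diet, and 1 passed in opposite directions. The sign of the fold change was the same on both diets for 86.2% of the genes called on the sufficient diet, against 60.9% of all genes. Litter cannot be told apart from diet here, and 3 of these 10 deficient libraries (duodenal 3, ileal 2 and ileal 3) stood apart by a share of 1.32 to 1.7% of counts in the pseudogene Gm19220, against 5.37 to 9.83% in 40 libraries of the series. Without those 3, 858 genes passed on the deficient diet (407 higher and 451 lower), and the values below include them unless stated.

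**Figure D5:**
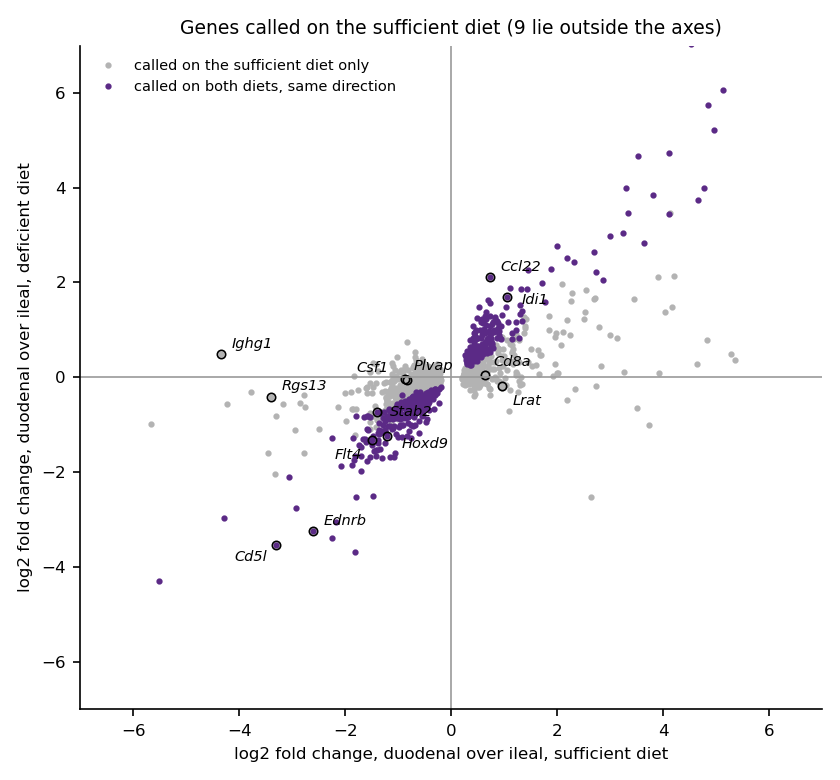
Log2 fold change of duodenal over ileal nodes on the sufficient diet (x axis) and on the deficient diet (y axis) for the 1433 genes called on the sufficient diet outside the pancreatic set, with 433 genes called on both diets in the same direction in purple and 9 genes outside the axes. Ednrb and Cd5l lie far below 0 on both axes, whereas Rgs13, Plvap and Csf1 are below 0 on the x axis and near 0 on the y axis.

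Several of the strongest differences also passed on the deficient diet. Ednrb averaged 8.04 ± 1.55 CPM in deficient duodenal nodes and 76.3 ± 13.4 CPM in deficient ileal nodes (log2 -3.24 ± 0.24, adjusted p = 4.55e-13). Cd5l averaged 21.3 ± 5.98 CPM in deficient duodenal nodes and 246 ± 37.5 CPM in deficient ileal nodes (log2 -3.53 ± 0.34, adjusted p = 1.02e-09). Hoxd9 and Cd209b gave 7.68 ± 2.25 CPM in deficient duodenal nodes and 18 ± 1.7 CPM in deficient ileal nodes (log2 -1.23 ± 0.18, adjusted p = 5.14e-06), and 180 ± 19.9 CPM in deficient duodenal nodes and 516 ± 114 CPM in deficient ileal nodes (log2 -1.52 ± 0.18, adjusted p = 6.88e-08). Idi1 averaged 49.2 ± 11 CPM in deficient duodenal nodes and 15.3 ± 2.31 CPM in deficient ileal nodes (log2 1.69 ± 0.19, adjusted p = 2.58e-08), and 8 of the 15 cholesterol genes were higher and 0 lower. For lymphatic endothelium 8 of 18 were lower and 1 higher, and for sinus and medullary macrophages 9 of 21 were lower and 1 higher.

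Other groups gave different counts. Germinal centre genes counted 1 higher and 0 lower of 15 on the deficient diet, where Rgs13 averaged 0.595 ± 0.533 CPM in deficient duodenal nodes and 0.725 ± 0.447 CPM in deficient ileal nodes (log2 -0.41 ± 0.61, adjusted p = 0.813). The difference between diets was not past the threshold for Rgs13 (difference -2.99 ± 0.87, adjusted p = 0.137) or Mef2b (difference -2.40 ± 0.58, adjusted p = 0.0542). Of the 10 higher T cell genes, Ccr7 also passed there, and none of the 17 T cell genes passed the test of the difference between diets. Lrat averaged 1.28 ± 0.357 CPM in deficient duodenal nodes and 1.41 ± 1 CPM in deficient ileal nodes, against higher sufficient levels in both nodes, and the contrast did not pass (log2 -0.18 ± 0.33, adjusted p = 0.852). The difference between diets did not pass for Lrat either (difference 1.14 ± 0.41, adjusted p = 0.28). Migratory dendritic cell genes were higher in 14 of 16 cases and regulatory T cell genes in 9 of 14, Foxp3 included (log2 0.57 ± 0.18, adjusted p = 0.0406), and the difference between diets passed for 5 of the 16 and 1 of the 14.

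A direct test of the difference between the 2 contrasts called 41 genes (0.223%), with 7 positive and 34 negative. When a library was left out it ran from 5 genes without sufficient duodenal library 4 to 83 without deficient duodenal library 3. It stood at 137 by DESeq2, at 9 without a filter and at 28 without the 3 deficient libraries that stood apart. Ccl22 averaged 184 ± 38.5 CPM in duodenal nodes and 111 ± 12.6 CPM in ileal nodes on the sufficient diet and 283 ± 75.2 CPM in deficient duodenal nodes and 65.5 ± 9.53 CPM in deficient ileal nodes, and the 2 contrasts differed under all 28 alternatives tried (difference -1.39 ± 0.21, adjusted p = 6.42e-04). Plvap, lower in duodenal nodes on the sufficient diet, had 257 ± 30.9 CPM in deficient duodenal nodes and 262 ± 18.4 CPM in deficient ileal nodes (difference -0.84 ± 0.16, adjusted p = 0.0157), and passed in 27 of the 28. Csf1 averaged 76.2 ± 11.6 CPM in deficient duodenal nodes and 79.9 ± 6.65 CPM in deficient ileal nodes (difference -0.78 ± 0.18, adjusted p = 0.0417), and passed in 11 of the 28, but not without those 3 libraries (adjusted p = 0.0835). Ltbp2, a matrix protein of elastic fibres, averaged 112 ± 22 CPM in duodenal nodes and 234 ± 55.5 CPM in ileal nodes on the sufficient diet and 133 ± 29.8 CPM in deficient duodenal nodes and 136 ± 19.4 CPM in deficient ileal nodes (difference -1.04 ± 0.20, adjusted p = 0.0166). Angpt2, a ligand of the TIE2 receptor, averaged 11.9 ± 2.56 CPM in duodenal nodes and 17.7 ± 3.51 CPM in ileal nodes on the sufficient diet and 13.6 ± 2.77 CPM in deficient duodenal nodes and 58 ± 25.9 CPM in deficient ileal nodes (difference 1.57 ± 0.35, adjusted p = 0.0344), and passed in 16 of the 28, again not without those 3 (adjusted p = 0.0521).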

How the data were processed

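RNA was taken from lymph nodes with TRIzol and made into poly(A) libraries, per the labels' protocols. The authors deposited estimated counts per gene in 1 table of 56600 entries, 379 of them without a gene name. Tools listed in the submitters' processing notes are kallisto, limma and edgeR, and the builds listed there are GRCm39 and mm10. Neither versions nor roles were stated there, so the coordinates printed are those of RefSeq's promoter table alone. Of the nonzero deposited values, 0.122% were whole to within 1e-06.

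Estimated counts were rounded, filtered with filterByExpr (18387 genes left) and scaled with TMM. A mean per diet and node and a sex term were fitted to all 50 libraries (edgeR 4.0.16, R 4.3.3), and p-values adjusted by Benjamini-Hochberg; standard errors were derived from the F statistic. The fit was tested on simulated data. The comparison, the 45 gene lists and the named genes were chosen with earlier results of these data known. The rule named up to 15 genes per direction by fold change with at least 5 CPM, 5 per list by p, set genes and 6 per direction for the diet difference; as most of its higher genes were pancreatic, further genes were named after their values were seen. Alternatives were RLE scaling, no filter, a filter of 1 CPM in 5 libraries, limma-voom 3.58.1, DESeq2 1.42.0, no sex term, 1 sex, fewer libraries, a replicate block and leaving out each library. RefSeq promoter entries (GRCm38.p6) were searched as given above. Some genes are not reported here. Figures were drawn with matplotlib 3.10.9.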

Additional observations from a re-analysis of the deposited data

Results flagged for a closer look

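Among 234 groups of 5 values checked, 16 held a value far from the other 4 by Dixon's criterion, where chance gives about 1 in 20 groups, and 11 of the 16 were duodenal and 5 ileal. The pancreatic acinar share was far above the rest in duodenal library 5 (25.9%) and in ileal library 5 (0.423%). Duodenal library 5 was also high for Krt18 (46.8 CPM), Fgl2 (65.3 CPM), Dhrs3 (54.9 CPM) and Ighg1 (57.2 CPM). Duodenal library 3 was high for Alb (211 CPM) and Nr1h3 (59.2 CPM), duodenal library 1 for Stab2 (152 CPM) and Lrrc32 (24.7 CPM), duodenal library 2 for Abca1 (183 CPM) and duodenal library 4 for Il7 (22.3 CPM). Among ileal libraries, number 5 was high for Nuggc (25 CPM) and Fdps (51.2 CPM), number 3 was high for Scd1 (1580 CPM) and number 1 was low for Cd74 (4920 CPM). For Stab2, Nr1h3, Nuggc, Il7, Cd74 and Lrrc32 the groups did not overlap with these values included.

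The contrast of duodenal over ileal nodes differed between the sufficient and the deficient diet for 7 named genes by edgeR's test of the difference (adjusted p under 0.05). On the log2 scale, sufficient minus deficient, the differences were -0.78 for Csf1, -0.84 for Plvap, -1.39 for Ccl22, -1.04 for Ltbp2, -0.94 for the membrane protein gene Tspan7, 1.57 for Angpt2 and 0.73 for Itgax, the CD11c gene of dendritic cells. Ccl22 and Tspan7 passed in all 28 alternatives, Plvap and Ltbp2 in 27, Angpt2 in 16, Itgax in 14 and Csf1 in 11, and the sign was the same in all 28 for each of the 7. Without the 3 deficient libraries that stood apart, Csf1, Angpt2 and Itgax did not pass (adjusted p = 0.0835, 0.0521 and 0.11). Deficient mice were all female and came from other litters, which cannot be told apart from diet.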

How the results depend on the processing

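The 1484 genes called as reported numbered 1460 with RLE scaling, 1106 without a filter, 1456 with the CPM filter, 1262 by limma-voom, 1629 by DESeq2, 1288 without the sex term, 1460 and 1404 with the acinar list alone or with its followers removed ahead of the fit, and 1329 with the 25 sufficient libraries. They numbered 869 with the 10 libraries compared alone, 136 in females and 372 in males, of which 27.4, 28.7 and 14.8% were higher, against 37.7% as reported. Leaving out each library gave 1055 (without ileal library 4) to 1458. Of the list genes, 174 were called, 20 in females, 78 in males and 139 to 164 without a library. The difference between diets, 41 genes, gave 9 without a filter, 137 by DESeq2, 13 without the sex term and 5 to 83 without a library, while the deficient contrast gave 712 to 1117. Of 103 called named genes, 90 were called in all 10 fits that leave out a sufficient duodenal or ileal library, and none changed sign in the alternatives run. Signs changed for uncalled genes, namely Igha in females (0.117), Cd4 in males (-0.0247) and Vegfd, which ran from -0.00313 to 0.294 without a library.

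Libraries with the same replicate number had correlations of 0.146, 0.379, 0.197, -0.0435 and 0.114 between their deviations from the group means. Numbers 1 to 3 correlated best with their own number, a hint from the data of a shared factor, whose nature was not tested. Sex is shared by number too. For deviations from the mean of each sex the correlations were 0.144, 0.144, 0.0766, -0.105 and 0.0339. The female libraries of a node deviate from their own mean by equal and opposite amounts, so both values of 0.144 are a single value. Among males, summed heat shock genes lay at 7820 and 6860 CPM in duodenal and ileal libraries 3. They lay at 6460 and 6150 CPM in duodenal and ileal libraries 4, and at 4390 and 4680 CPM in libraries 5. As not every correlation was over 0.1 and the labels do not tie the numbers to mice, the libraries were not treated as pairs. The p-values of the main fit therefore take no account of a factor shared by number, other than sex. With the number as a block, 825 genes passed in the 10 libraries, 31.2% of them higher, and 1824 in all 50, where the difference between diets called 97. In the 10 libraries, 10 of the 103 named genes lost their call with the block (Alb, Chst2, Chst4, Emcn, Fgl2, Il7, Npy1r, Nr2f1, Tnfsf13b and Ttr) and 13 without it. Depth of 6288059 to 8487925 counts limits genes near or under 1 CPM, such as Rgs13 in duodenal nodes.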

Other observations

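Further gene groups of the same comparison are given here as values. Interferon response genes counted 0 higher and 0 lower of 18 on the sufficient diet by edgeR, limma-voom and DESeq2, and 2 lower at an unadjusted p under 0.05, with a median log2 fold change of -0.45, whereas on the deficient diet 16 of 18 were lower in duodenal nodes, with a median of -1.80. None of the 18 passed the test of the difference between diets. Of 18 cell cycle genes 3 were lower in duodenal nodes (Plk1, Mcm3 and Mcm5), and 1 without ileal library 5. At an unadjusted p under 0.05, 13 of these 18 were lower and 0 higher, with a median log2 fold change of -0.38. Among 13 genes of type 1 dendritic cells 3 were higher (Xcr1, Itgae and Snx22) and 2 lower (Irf8 and Cadm1). Itgax was higher, with 86.3, 94, 82.6, 62.3 and 72.5 CPM in duodenal nodes, against 53, 67.7, 55.3, 50.4 and 49.7 CPM in ileal nodes (log2 0.52 ± 0.12, adjusted p = 0.002). Of 15 neutrophil and monocyte genes 1 was higher (Il1b) and 2 lower (Csf3r and Cxcr2), and 0 of 11 mast cell, basophil and eosinophil genes passed by edgeR or limma-voom, against 2 lower by DESeq2, and 2 higher and 2 lower at an unadjusted p under 0.05. Of 20 collagen genes 2 were lower (Col5a1 and Col6a6), and 6 without duodenal libraries 3 and 5.

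The following genes were picked after their values were seen, and all were lower in duodenal nodes. The X-linked Xlr5a and Xlr5c, near-identical copies among which reads cannot be divided with certainty, had 4.01, 5.45, 6.89, 3.83 and 4.5 CPM in duodenal nodes, against 18.6, 20.2, 15.8, 16.7 and 9.07 CPM in ileal nodes for Xlr5a and 17.8, 10.9, 12.7, 13.5 and 18.5 CPM in duodenal nodes, against 52.6, 55.1, 70.6, 49.5 and 31.5 CPM in ileal nodes for Xlr5c. The netrin receptor gene Unc5b had 17.4, 15.7, 13.8, 14.1 and 16.4 CPM in duodenal nodes, against 58.4, 54.1, 51.5, 59 and 31 CPM in ileal nodes. Il22ra2, the soluble inhibitor of interleukin 22, had 8.29, 9.18, 8.15, 19.8 and 10.4 CPM in duodenal nodes, against 34, 41.7, 33.2, 55.8 and 28.8 CPM in ileal nodes. Tbx1, a transcription factor gene that acts in lymphatic endothelium, had 23.4, 17, 13.3, 18.6 and 19.4 CPM in duodenal nodes, against 54.4, 71.2, 61.7, 62 and 42.7 CPM in ileal nodes. Plat, the tissue plasminogen activator gene, had 8.29, 5.6, 4.39, 2.51 and 9.68 CPM in duodenal nodes, against 27.5, 21.6, 24.6, 24 and 7.67 CPM in ileal nodes, with ileal library 5 inside the duodenal range.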
